A study of Mus musculus with 38 samples.

Results

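SOX2 binding was described at isolated wide distal sites, meaning SOX2 sites that stand apart from other SOX2 sites, cover at least 300 bp and lie away from gene starts and from HSF sites. The 15081 SOX2 intervals were sorted along the mm10 genome and joined into chains across gaps of up to the customary stitching distance of super-enhancer calls, and the widest gap joined was 12476 bp. A member belonged to a chain of 1 or 2 intervals, was at least 300 bp wide, overlapped no HSF1 or HSF2 site, and lay more than 1 kb from every protein-coding transcript start of GENCODE M21 basic. These rules gave 3579 members, which are 23.7% of all SOX2 sites. The rules used width, spacing and position and no signal value, though they were set with earlier results of these data known.

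SOX2 is a transcription factor of the SOX family, whose HMG box binds short A/T-rich words in the minor groove and bends the DNA. In embryonic stem cells it works with OCT4, a POU factor that recognises the octamer, and the pair bind side by side at enhancers of pluripotency genes. Most transcription factors were long thought to leave condensed chromosomes, and SOX2 is among those known to stay associated with chromosomes during mitosis.

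The libraries were made by CUT&Tag, in which an antibody directs the Tn5 transposase to the bound protein and Tn5 inserts sequencing adapters nearby. SOX2 was measured in the wild type mouse embryonic stem cell line JM8, in an asynchronous (A) group left untreated and a mitotic (M) group, with 2 libraries in each. The mitotic cells were arrested with nocodazole, a blocker of tubulin polymerization, at 50 ng/ml for 6 h and collected by shake-off. Both groups come from 1 cell line, and the arrested cells differ from the untreated cells by the drug as well as by phase, so drug and phase cannot be told apart. The SOX2 intervals were an earlier published list and were not called from these libraries.

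Each value is the mean spike-in scaled coverage per base over an interval, averaged over both libraries of a phase by the authors. There are therefore no replicates behind any value below, no difference between the phases could be set against library error, and the depth is unknown. The 95% intervals given for medians and shares describe the spread over sites of these averaged tracks only. Scaling by Drosophila spike-in reads sets the M level relative to the A level, so every log2 M/A value shifts with that factor.

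The sequences that the results below turn on are shown first, read 5′ to 3′ from GRCm38.p6, the reference for mm10. Capitals mark the SOX words ACAATG and ACAAAG, the octamer ATGCAAAT, and their reverse complements. Each line names the nearest protein-coding gene, and the coordinates are those of the printed stretch. The first 4 stretches come from the largest family of members with alike sequence. They are aligned on the 12 bases that most of that family shared, and any 2 of the 4 were identical at no less than 73.1% of their 160 positions.
Zfp273, chr13:67798919-67799078, plus strand: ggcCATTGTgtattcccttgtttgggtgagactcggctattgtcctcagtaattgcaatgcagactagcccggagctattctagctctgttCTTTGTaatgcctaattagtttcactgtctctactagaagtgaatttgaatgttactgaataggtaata
Cyp3a13, chr5:137933991-137934150, minus strand: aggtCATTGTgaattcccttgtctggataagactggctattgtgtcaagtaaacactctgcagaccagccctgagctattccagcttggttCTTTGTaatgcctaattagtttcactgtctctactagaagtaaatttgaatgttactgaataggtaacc
Cwf19l2, chr9:3439744-3439903, plus strand: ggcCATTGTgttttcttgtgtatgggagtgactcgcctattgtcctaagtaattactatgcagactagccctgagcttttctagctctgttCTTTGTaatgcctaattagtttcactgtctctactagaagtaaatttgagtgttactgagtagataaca
Sntg1, chr1:8581962-8582121, minus strand: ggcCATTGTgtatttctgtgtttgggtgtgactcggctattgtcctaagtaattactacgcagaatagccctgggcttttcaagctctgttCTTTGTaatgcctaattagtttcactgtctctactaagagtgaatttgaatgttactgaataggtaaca

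The next 3 stretches are the densest 160 bp of members with at least 10 copies of ACAATG. They are shown because these members were lower in M than in A.
Zfp11, chr5:129632928-129633087, plus strand: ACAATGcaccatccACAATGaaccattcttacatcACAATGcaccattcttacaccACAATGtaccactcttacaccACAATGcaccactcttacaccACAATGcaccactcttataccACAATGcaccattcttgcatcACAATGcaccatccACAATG
Plekhb2, chr1:35115681-35115840, plus strand: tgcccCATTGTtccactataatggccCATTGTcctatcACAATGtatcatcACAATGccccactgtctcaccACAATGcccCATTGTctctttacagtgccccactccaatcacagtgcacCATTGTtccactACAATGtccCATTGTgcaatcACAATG
Tnfrsf19, chr14:60957978-60958137, plus strand: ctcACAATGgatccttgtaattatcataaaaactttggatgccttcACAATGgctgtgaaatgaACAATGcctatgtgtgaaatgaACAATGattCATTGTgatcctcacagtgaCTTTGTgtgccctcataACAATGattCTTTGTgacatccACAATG

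The next stretches are the middle 200 bp of the member with the highest signal, in an intron of Chl1, and of the member with the second highest, in an intron of Nxn.
Chl1, chr6:103649041-103649240, plus strand: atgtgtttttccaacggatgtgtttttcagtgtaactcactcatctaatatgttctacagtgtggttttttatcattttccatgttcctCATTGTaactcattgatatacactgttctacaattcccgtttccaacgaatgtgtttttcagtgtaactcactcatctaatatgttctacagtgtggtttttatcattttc
Nxn, chr11:76351331-76351530, plus strand: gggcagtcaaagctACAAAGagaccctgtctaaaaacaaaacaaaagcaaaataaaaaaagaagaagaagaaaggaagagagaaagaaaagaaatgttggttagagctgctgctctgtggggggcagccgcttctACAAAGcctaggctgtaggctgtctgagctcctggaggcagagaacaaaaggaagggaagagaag

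The last stretches hold the octamer. The site at Txlng is among the 8 with the highest mean signal, and the site at Prg4 is among the 8 with the lowest log2 M/A. The stretches at Sox9, Gatb and Galnt17 hold the OCT4-SOX2 composite, which is CATTGT, 1 base of any kind and then ATGCAAAT, all in capitals there.
Txlng, chrX:162832397-162832496, plus strand: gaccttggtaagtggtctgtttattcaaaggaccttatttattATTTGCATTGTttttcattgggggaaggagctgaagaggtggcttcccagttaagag
Prg4, chr1:150497070-150497169, plus strand: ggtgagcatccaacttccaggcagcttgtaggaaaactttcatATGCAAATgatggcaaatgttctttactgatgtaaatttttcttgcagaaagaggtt
Sox9, chr11:112811246-112811300, plus strand: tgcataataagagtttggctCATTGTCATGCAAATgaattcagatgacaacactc
Gatb, chr3:85338371-85338425, plus strand: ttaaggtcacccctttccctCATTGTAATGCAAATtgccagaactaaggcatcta
Galnt17, chr5:131177341-131177395, plus strand: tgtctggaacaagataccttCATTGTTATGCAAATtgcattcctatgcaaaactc

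The members were 324 to 3324 bp wide, with a median of 399 bp and quartiles of 349 and 474 bp. Widths in the list move in steps of 25 bp, so the narrowest members of 324 bp adjoin non-members of 299 bp. In all, 2708 members stood alone and 871 were in a chain of 2. The nearest other SOX2 site lay a median of 33851 bp away. The members covered 1735 kb of the genome in total.

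SOX2 signal was higher at the members than at isolated narrow distal sites in both phases. The median A signal was 14.7 (95% interval 14.1 to 15.4) over the members and 6.00 (5.80 to 6.16) over the 8508 narrow sites. The median M signal was 18.5 (17.4 to 19.2) against 7.25 (7.05 to 7.47). Clustered distal sites had medians of 10.9 in A and 11.7 in M. The 567 distal sites at HSF sites were higher than the members, at 41.3 and 47.4. Of the members, 67.9% were above the A median of all SOX2 sites, and 363 were among the 1000 highest of all. These gaps between classes of sites were not tested.

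The step from narrow to wide was gradual. Isolated distal sites of 299 bp had a median A signal of 9.40 and M signal of 11.8, and members of 324 bp had 9.83 and 12.3, so the values just outside and just inside the threshold were alike. Sites of 49 bp had 4.79 in A and 6.29 in M. The medians were 18.1 and 22.7 at 399 bp and 30.8 and 47.9 at 524 bp. At 549 to 624 bp, with 31 to 57 sites a width, the A medians were between 16.1 and 24.7. Over the members, Spearman's rho between width and A signal was 0.22 (n = 3579 sites of 1 averaged track).

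**Figure D1:**
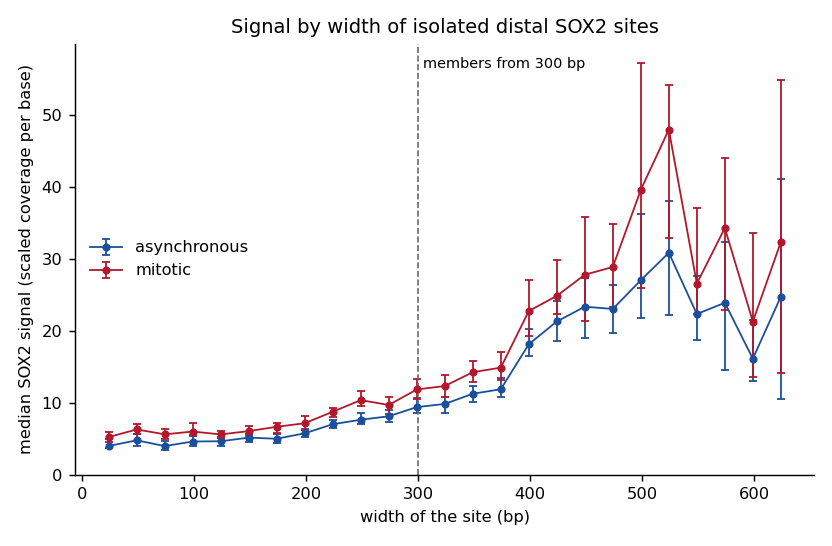
Median SOX2 signal in scaled coverage per base (vertical axis) by width in bp (horizontal axis) for isolated distal sites of up to 624 bp, with 95% intervals over sites. The A median (blue) is 4.79 at 49 bp, 9.83 at 324 bp and 30.8 at 524 bp, with no step at the dashed line where the members begin, and the M median (red) is above it at every width shown.

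At most members the M signal was somewhat above the A signal. The median log2 M/A was 0.35 (95% interval 0.32 to 0.38), and 2351 of 3569 members with signal in both phases, 65.9%, were above 0. Centring on the weakest quartile of all SOX2 sites, whose median log2 M/A was 0.30, left 0.056 of this difference. All SOX2 sites together had a median of 0.34, and narrow sites had 0.35.

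The spread of log2 M/A was smaller over the members than over narrow sites, and smaller still over the distal sites at HSF sites. A log2 M/A of at least 1, meaning M at least 2 times A, was found at 832 members, 23.3%, and the background over all SOX2 sites was 26.8%. A log2 M/A of at most -1 was found at 173 members, 4.85%, and the background was 10.0%. The interquartile range of log2 M/A was 1.15 over the members, 1.61 over narrow sites and 1.01 over distal sites at HSF sites, where 17.5% were at least 2-fold higher in M and 3.71% at least 2-fold lower. Log2 A accounted for an R2 of 0.685 of log2 M over members, 0.435 over narrow sites and 0.776 over distal sites at HSF sites, as a description over 3569, 7778 and 566 sites that share their libraries. Only 10 members had no A signal, with M signals of 0.632 to 8.69, while 730 narrow sites lacked signal in 1 phase or both. Narrow sites also had fewer bases and lower signal, and the part of these in the spread was not tested.

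At like A signal the members had a higher log2 M/A than narrow sites, except in the weakest bin. For A between 10 and 20, the median was 0.25 (0.18 to 0.32) at 933 members and 0.05 (-0.01 to 0.09) at 1652 narrow sites. Between 20 and 40 it was 0.28 (0.22 to 0.35) against 0.14 (0.05 to 0.19), and above 40 it was 0.40 (0.32 to 0.48) against 0.23 (0.11 to 0.30). Between 5 and 10 the intervals overlapped, at 0.28 (0.19 to 0.34) against 0.16 (0.10 to 0.22). At A of up to 5 the order turned, with 0.80 (0.68 to 0.96) at members and 0.95 (0.90 to 1.01) at narrow sites. The bins include the 124 members of the largest sequence family, with a median A signal of 47.6 and a median log2 M/A of 1.18. The 650 members outside that family with A of 29.0 to 79.3 had 0.24 (0.19 to 0.32). A enters both the bins and log2 M/A, so the bins are not independent of it. The differences between the classes, and the part of the family in them, were not tested.

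**Figure D2:**
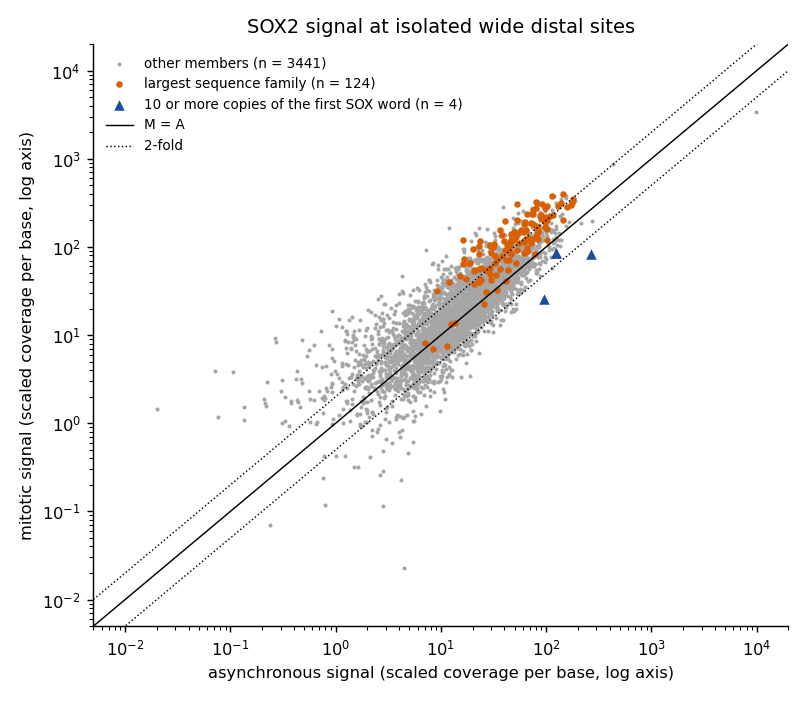
SOX2 signal of each member in A (horizontal axis) and M (vertical axis), in scaled coverage per base on log axes, for the 3569 members with signal in both phases. The solid line marks equal signal and the dotted lines a 2-fold difference, the largest sequence family (orange, n = 124) lies above the solid line at 119 sites, and the 4 members with at least 10 copies of ACAATG (blue triangles) lie below it.

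One member stood far above all others. The site in an intron of Chl1, a cell adhesion gene of the nervous system, at chr6:103648904-103649377, had an A signal of 9926 and an M signal of 3388. This A signal was 23.0 times the next highest and made up 11.1% of all A signal summed over members. The mean A signal over members was 24.9 with it and 22.1 without it. Its log2 M/A was -1.55, against 0.35 for the median member, and 40.7% of its bases were repeat-masked. A run of bases near the start of its printed stretch comes again, nearly unchanged, near the end of it. Reads from alike copies elsewhere in the genome can be placed at such a site, so its signal need not come from this place. The part of this in its level was not tested, and its level in the IgG libraries was not analysed here.

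The other 7 members with the highest mean signal were all higher in M than in A. The site in an intron of Nxn, which encodes the redox protein nucleoredoxin, went from 432 in A to 875 in M, which is 1.02 as log2 M/A. The sites near Gm15446 (145 in A and 400.3 in M) and Zfp273, a zinc finger gene (179 and 346), both belong to the largest sequence family. The site near Galntl6, a gene of the glycosyltransferase family that starts mucin-type glycans, had 155 and 376. The octamer-bearing site near Txlng, a taxilin gene on chromosome X, had 189 and 334. The site near Bcas2, a spliceosome subunit, had 154 and 355, and the site in an intron of Dock2, a Rac activator of blood cells, had 120 and 380. All 8 sites held at least 1 SOX word, and 1 of 8 held the octamer. Of all members, 22.4% held no SOX word and 12.9% held the octamer, so counts over 8 sites do not set these sites apart.

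Among the 1790 members with a mean signal of at least 16.9, the member median, the 8 highest log2 M/A values were 2.86 to 3.75. The site 8.57 kb downstream of the start of Ghrh, the hypothalamic growth hormone releasing hormone, had 12.0 in A and 162 in M. The site 88.1 kb upstream of Apc, the scaffold of the beta-catenin destruction complex, had 7.23 and 91.8. Sites in introns of Nhs (4.28 and 46.7), Enpp3 (8.38 and 65.0) and Mrps28, a subunit of the mitochondrial ribosome (4.24 and 31.6), were low in A. The site 1.05 kb upstream of Onecut1, a homeobox factor of liver and nervous system, had 8.30 and 63.3. The site near Pcdh11x, a protocadherin, had 16.1 and 118, and belongs to the largest family. Nmnat2, an enzyme of NAD synthesis in neurons, held in an intron the site with the highest M signal of the 8, at 285 against 39.1 in A. All 8 held a SOX word and none held the octamer, counts that are again too small to read against the shares over all members. Their A signals were 4.24 to 39.1, against a member median of 14.7.

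The 8 lowest log2 M/A values among the same 1790 members were -1.38 to -1.91. Beside Chl1, they were near Zfp11 (95.2 in A and 25.3 in M), Plekhb2 (265 and 82.2), Nrip1, a corepressor of nuclear receptors (31.4 and 10.7), Abcg8, a sterol transporter (36.4 and 13.2), Prg4, the joint lubricant lubricin (51.9 and 19.7), Eed, a subunit of Polycomb repressive complex 2 (38.9 and 14.8), and Fryl (49.5 and 18.95). Of these 8 sites, 6 held a SOX word and 1, near Prg4, held the octamer, which are likewise close to the shares over all members. The M signals of all 8 were 10.7 or higher, against a member median of 18.5.

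**Figure D3:**
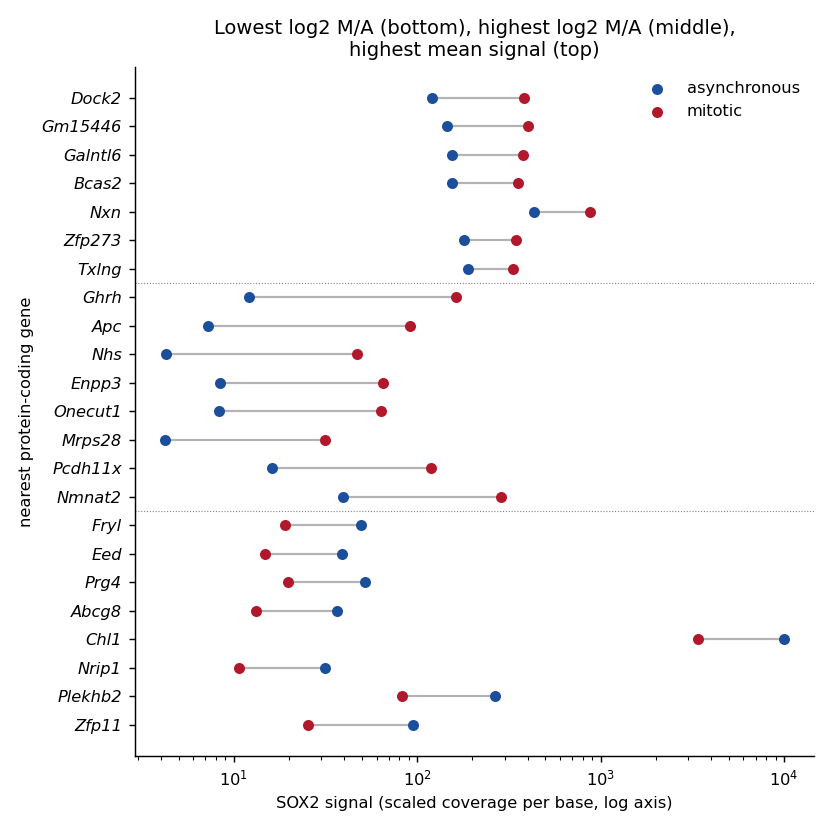
A signal (blue) and M signal (red) in scaled coverage per base on a log axis for the members with the lowest log2 M/A (bottom 8 rows), the highest log2 M/A (middle 8) and the highest mean signal (top 7), labelled by nearest protein-coding gene. Chl1, plotted in the bottom block at 9926 in A and 3388 in M, also has the highest mean signal, and the 7 sites in the top block all have red to the right of blue.

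SOX words were more frequent in the members than in the DNA around them. ACAATG, on either strand, was in 43.9% of members and in 25.1% and 23.6% of windows of equal width 2 kb to each side. ACAAAG was in 61.6% against 34.98% and 37.1%, and the octamer ATGCAAAT was in 12.9% against 3.74% and 2.74%. The exact composite of CATTGT, 1 free base and ATGCAAAT was in 9 members (0.25%) and in none of the flanking windows, and the looser form of CATTGT, 1 free base, ATG, 2 free bases and AA was in 60 members (1.68%). The word of ESRRB, a pluripotency factor, TCAAGGTCA, was in 3.66% against 1.15% and 0.95%, and that of KLF factors, GGGTGTGG, in 7.15% against 3.27% and 4.08%. The E-box CACGTG (5.34% against 5.53% and 5.78%) and the heat shock element of 3 alternating GAA and TTC units, each 2 free bases apart, (0.75% against 0.89% and 0.87%) were about as frequent as in the flanks. The AP-1 word TGANTCA was somewhat more frequent than in the flanks (16.4% against 13.7% and 13.9%). CCAAT (45.9% against 50.3% and 49.9%) and the core word of CTCF (2.37% against 3.52% and 3.21%) were less frequent, with both flank values above the 95% interval of the members. No interval was computed for the flanks, and the differences between members and flanks were not tested. Narrow sites of at least 200 bp held the SOX words and the octamer about as often as members in their central 200 bp. ACAATG was in 29.1% of these narrow sites and 29.5% of members, and ACAAAG in 39.0% and 41.2%. For the octamer the shares were 8.47% and 9.08%. A match describes letters in the window and not a bound site.

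The words were gathered near the middle of the members. In the 20 bp bins on either side of the middle, 5.17% and 5.64% of members held a copy of ACAATG, against 1.29% to 1.90% in the bins 100 to 160 bp away. For ACAAAG these were 6.48% and 8.16% against 2.57% to 3.41%, and for the octamer 2.21% and 2.37% against 0.20% to 0.28%.

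**Figure D4:**
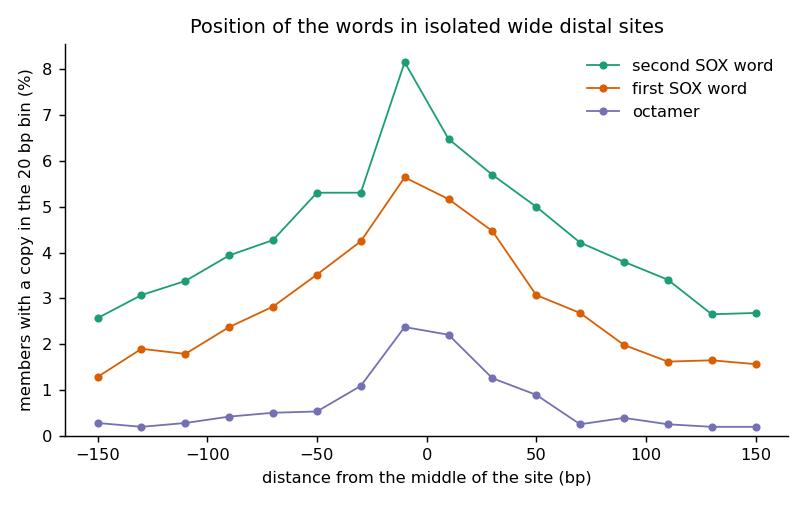
Share of members (vertical axis, percent) that hold a copy of a word in each 20 bp bin by distance in bp from the middle of the site (horizontal axis), for ACAATG (first SOX word, orange), ACAAAG (second SOX word, green) and the octamer (purple). All 3 words peak at the middle, where the bins reach 5.64%, 8.16% and 2.37%.

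Members with a SOX word and no octamer had a higher log2 M/A than the other groups, and members with both kinds of word were close to those with neither. The 2439 members with a SOX word and no octamer had a median A signal of 16.2 and a median M signal of 21.6. Their median log2 M/A was 0.47 (0.43 to 0.51). At least 2-fold higher in M were 26.7% of them, close to the 26.8% over all SOX2 sites. At least 2-fold lower were 2.96%, against 10.0% over all SOX2 sites. The 337 members with both kinds of word had 12.2 in A and 12.53 in M, with a log2 M/A of 0.11 (0.01 to 0.24). The 125 members with an octamer and no SOX word had 9.55 and 7.91, with -0.02 (-0.31 to 0.09). Of these, 8.06% were at least 2-fold higher in M and 12.9% at least 2-fold lower, against the same 26.8% and 10.0%. The 678 members with neither had 13.02 and 13.5, with 0.10 (0.04 to 0.16). Centring on the weakest quartile of all SOX2 sites lowers each of these medians by 0.30, which leaves the SOX group above 0 and puts the other 3 below it. The difference between the SOX group and the group with neither was 0.37 on the log2 scale, and 0.33 without the largest sequence family. These differences were not tested.

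The same order of the SOX group and the group with neither was seen in the other site classes. The medians were 0.55 and 0.16 at narrow sites, 0.36 and 0.08 at clustered distal sites, and 0.63 and 0.23 at coding starts. Narrow sites with an octamer and no SOX word had -0.03 (n = 327), close to the members. The intervals of the octamer groups at clustered sites and coding starts, with 37 to 66 sites each, were wide.

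**Figure D5:**
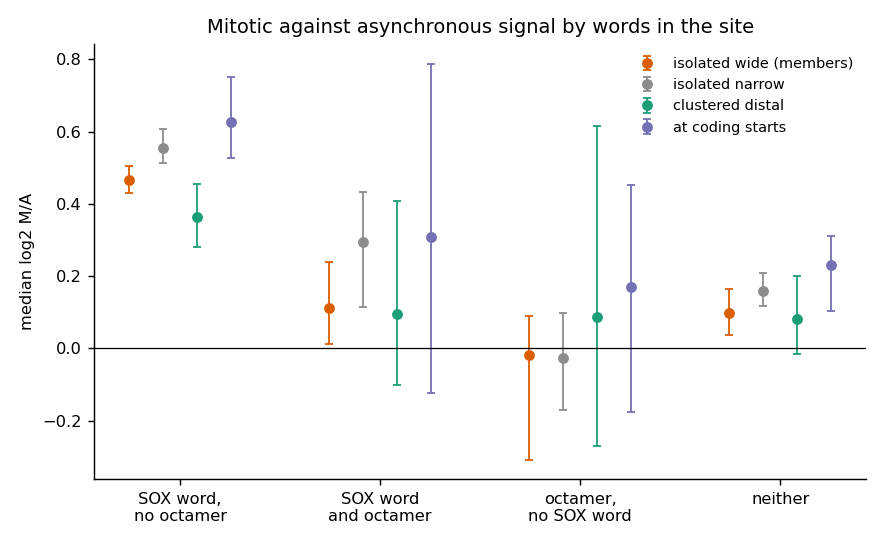
Median log2 M/A (vertical axis) of sites grouped by the words they hold (horizontal axis), with 95% intervals over sites, for the members (orange), isolated narrow (grey) and clustered distal sites (green) and sites at coding starts (purple). In each class of sites the group with a SOX word and no octamer is above the group with neither, at 0.47 against 0.10 in the members.

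The SOX group was above the group with neither at each level of A signal, though the intervals overlapped in the weakest group. In quartile groups of the members by A, from weakest to strongest, the SOX group had medians of 0.74, 0.38, 0.42 and 0.46. The group with neither had 0.52, -0.03, -0.05 and 0.00. The octamer group without a SOX word had 0.03, -0.40, 0.10 and 0.00, from 47, 37, 20 and 21 sites, and its interval included 0 in every group.

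More SOX words went with a higher log2 M/A up to 3 copies. Members with 0, 1, 2 and 3 copies had medians of 0.08, 0.30, 0.52 and 0.63, from 803, 1177, 845 and 416 sites. The values were 0.58 at 4 copies (n = 211) and 0.40 at 5 or more (n = 127). The A medians were 12.3, 13.5, 16.6, 15.6, 16.98 and 20.4 in the same order. Median widths were 374, 374, 399, 424, 599 and 874 bp in that order. Of the 124 members of the largest sequence family, 122 held a SOX word, with a median of 2 copies. The part of width and of that family in the order by copies was not tested. Members with both words had 0.59, those with ACAATG alone 0.40 and those with ACAAAG alone 0.32. The 131 members with the ESRRB word had 0.14, against 0.36 without it, and members with CCAAT had 0.30 against 0.41.

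The exact composite was found at sites of mostly low signal. Its 9 members had A signals of 2.58 to 24.4 and M signals of 0.115 to 50.5. The site 28838 bp downstream of the start of Sox9, a SOX factor of cartilage and testis, had 21.6 in A and 50.5 in M. The sites near Gatb and Galnt17 had 11.3 and 14.8, and 13.7 and 9.51. The site near Irx2, a homeobox factor, had 2.79 in A and 0.115 in M, the lowest log2 M/A of the 9 at -4.61, at levels among the weakest of the members. The composite members lay 28838 to 466537 bp from a coding start.

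A group of 124 members, 3.46% of the total, shared sequence with each other. A family was a central site with all members that shared at least 20 words of 12 bases with it, and 17 families of at least 5 sites held 357 members. The grouping was made after signal values had been seen, so the values of its largest family are a description. The family was found on 20 chromosomes, with 98 sites between genes, 25 in introns and 1 in an exon, and its median distance to a coding start was 124 kb. A median of 78.5% of its bases were repeat-masked, against 13.2% for other members. No repeat annotation was used here, so the family is not named.

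The family was high in both phases and higher in M. Its A signals ran from 7.13 to 179 with a median of 47.6, and its M signals from 6.89 to 400.3 with a median of 115. The other members had medians of 14.1 and 17.4. Its median log2 M/A was 1.18 (1.01 to 1.31), with 119 of 124 sites above 0. Of its sites, 74 (59.7%) were at least 2-fold higher in M and none at least 2-fold lower. Over all SOX2 sites, 63.4% were above 0, 26.8% at least 2-fold higher and 10.0% at least 2-fold lower. The family supplied 43 of the 100 highest M signals and 23 of the 100 highest A signals among members. With at least 40 shared words the family held 108 sites and had a median of 1.25. Centred on the weakest quartile of SOX2 sites, its median was 0.89.

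Other members of like A signal had a lower log2 M/A. The 650 members outside the family within its interquartile range of A had a median A of 41.1 and M of 51.3, with a log2 M/A of 0.24 (0.19 to 0.32). The 231 other members that were at least 50% repeat-masked had 20.7 and 26.3, with 0.36 (0.23 to 0.43). Reads from alike copies can be placed at more than 1 copy, and the part of this in the family's level was not tested.

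The family is rich in SOX words. ACAATG was in 103 of its sites and ACAAAG in 110, while 2 sites had neither and none had the octamer. The shares were 83.1% and 88.7%, against 42.5% and 60.7% in the other members. In each of the 4 stretches printed above, 1 copy of each word stands at a matching or nearly matching place. The 12 bases used for the alignment were in 87 of the 124 sites.

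The same sequence was found at 126 SOX2 sites outside the members. Of these, 83 were isolated narrow sites, with median signals of 32.1 in A and 51.2 in M and a log2 M/A of 0.78 (0.62 to 1.17). Other narrow sites had 5.89 and 7.17. Another 37 were distal sites at HSF sites, with 106 and 180, and 6 were clustered distal sites. None was at a coding start.

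In log2 M/A the next families were closer to the other members. The second held 59 sites with medians of 24.3 in A and 36.9 in M and a log2 M/A of 0.46 (0.34 to 0.62). The third held 33 sites with 30.2 and 22.6, and a log2 M/A of 0.06 (-0.20 to 0.32). A family of 10 sites, of which 80.0% held the ESRRB word, had medians of 22.7 in A and 20.1 in M. The family of 7 sites with the highest A median had 88.1 and 64.3, and a log2 M/A of -0.21. After the largest family, the highest medians of log2 M/A were 0.83 over 5 sites and 0.76 over 6 sites, with every site above 0.

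Members with many copies of ACAATG were high in A and lower in M. Only 4 members held at least 10 copies, the next highest count was 7, and no other SOX2 site held 10. They were picked out after the lowest log2 M/A values had been seen. The site 36.6 kb downstream of Zfp11 held 51 copies in 1199 bp, with 95.2 in A and 25.3 in M. The site near Plekhb2 held 26 copies, with 265 and 82.2. The site near Mppe1 on chromosome 18 held 18 copies, with 124 and 84.5, and the site near Tnfrsf19, a receptor of the TNF family, held 15 copies, with 123 and 85.2. Their log2 M/A values were -1.91, -1.69, -0.55 and -0.53. At most 11.8% of their bases were repeat-masked. The 160-base stretches printed above for Zfp11, Plekhb2 and Tnfrsf19 hold 9, 10 and 7 copies.

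Genes known for pluripotency, lineage choice, signalling and chromatin had members near them. The 5 lists held 113 gene names, among them both Zfp42 and its other name, Rex1. Of these, 67 were the nearest coding gene of at least 1 member, with 125 members in all. Their median log2 M/A was 0.23 (0.07 to 0.36). At least 2-fold higher in M were 19 (15.2%), against 26.8% over all SOX2 sites and 23.3% over all members. At least 2-fold lower were 8 (6.4%), against 10.0% over all SOX2 sites and 4.85% over all members. The nearest gene is a label of position and not a target.

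For the pluripotency factors, 41 members had a median log2 M/A of 0.17 (-0.16 to 0.45). Of these, 8 (19.5%) were at least 2-fold higher in M and 2 (4.88%) at least 2-fold lower. The shares over all SOX2 sites were 26.8% and 10.0%. The site 15.2 kb upstream of Pou5f1, which encodes OCT4, had 25.6 in A and 71.7 in M. It held 3 copies of ACAATG and 1 of ACAAAG. The site 19.8 kb upstream of Foxd3, a forkhead repressor, had 110 and 77.0. Sites near Nr5a2, a nuclear receptor (69.2 and 61.1), Mycn (45.7 and 40.9) and Sall1, a zinc finger factor (48.7 and 34.2), were lower in M by less than 2-fold. The single member near Zfp42, known as Rex1, had 12.0 and 30.3.

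For genes known as OCT4-SOX2 targets, 6 members had a median of 0.01. The site 1.48 kb upstream of Dppa3, a maternal factor, had 26.5 in A and 31.0 in M and held 2 octamers. The site in an intron of Trim71, a regulator of translation, had 20.8 and 10.5. The site in an intron of Upp1 had 6.17 and 14.5.

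For formative and lineage regulators, 19 members had a median of 0.55 (-0.37 to 0.89). Of these, 4 (21.1%) were at least 2-fold higher and 3 (15.8%) at least 2-fold lower. The shares over all SOX2 sites were 26.8% and 10.0%. Sites near Sox11 (44.1 in A and 103 in M), Nes, the intermediate filament of neural progenitors (26.6 and 48.7), Sox4 (23.3 and 43.3) and Pou3f2 (22.9 and 40.03) were higher in M. The site near Pou3f2, 705 kb away, belongs to the largest sequence family. The site near Zic1 had 43.6 and 33.8.

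For signalling genes, 43 members had a median of 0.33 (-0.06 to 0.49). The highest was the site 7.83 kb upstream of Lef1, a nuclear effector of Wnt signalling, with 124 in A and 130 in M. Sites near Lifr, the LIF receptor (57.3 and 55.1), Il6st, its partner gp130 (58.4 and 53.9), Tcf7l1 (78.7 and 64.7) and Fzd7, a Wnt receptor (65.5 and 92.2), were within 2-fold. Of the 43 sites, 6 (14.0%) were at least 2-fold higher in M, against 26.8% over all SOX2 sites. The 1 site at least 2-fold lower (2.33%, against 10.0%) was near the BMP receptor gene Bmpr1a, at 1.503 and 0.320.

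For chromatin regulators, 16 members had a median of 0.18 (-0.73 to 0.39), with none at least 2-fold higher and 2 at least 2-fold lower. The site in an intron of Mtf2, a Polycomb partner, had 127 in A and 124 in M. The site 12.2 kb upstream of Suz12, a subunit of Polycomb repressive complex 2, had 114 and 58.1, and that of Eed, another subunit, was given above. Sites near Chd7 (35.2 and 53.4) and Jarid2 (37.5 and 42.0) were higher in M by less than 2-fold.

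Some genes had several members around them, with mixed directions. Tbl1xr1, a corepressor subunit, was nearest to 10 members, with A signals of 1.15 to 51.8 and M signals of 3.17 to 117, and 6 were higher in M. Rybp, of a variant Polycomb complex 1, was nearest to 6, with A signals of 3.00 to 77.8, M signals of 6.06 to 167 and 5 higher in M. Trim24 was nearest to 6, with 10.1 to 85.7 in A and 5.50 to 65.0 in M, and 2 were higher in M. In all, 2675 genes were nearest to a member, and 2055 of them to exactly 1.

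Members of a pair within a chain often differed in log2 M/A. In 144 chains both intervals were members, a median of 5114 bp apart. Their log2 M/A values had the same sign in 86 pairs (59.7%) and differed by a median of 0.67. Over all members 65.9% were above 0, so unrelated members would also share a sign in many pairs. Pairs were not tested against unrelated members. Spearman's rho over the 144 pairs was 0.31 for A signal and 0.13 for log2 M/A, given as a description. Members alone in their chain had a median log2 M/A of 0.37 (0.33 to 0.40), and those in chains of 2 had 0.30 (0.23 to 0.36).

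By position, 46.0% of members had their middle in an intron, 3.44% in an exon and 50.6% between genes, and narrow sites had 47.7%, 3.19% and 49.1%. The median log2 M/A was 0.34 in introns, 0.36 in exons and 0.36 between genes. The median distance to a coding start was 36.5 kb, with quartiles of 12.8 and 114 kb. Members in the nearest quintile had a median log2 M/A of 0.23 (0.17 to 0.32), and those in the farthest quintile had 0.41 (0.36 to 0.47). In quintiles by GC content the medians went from 0.23 at the lowest to 0.50 at the highest, while A medians stayed between 13.5 and 16.2. By repeat-masked share, A medians went from 10.5 in the lowest quintile to 21.8 in the highest. Members made up 22.1% to 25.5% of the SOX2 sites of each chromosome, and the chromosome medians of log2 M/A were between 0.26 and 0.47.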

How the data were processed

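SOX2 CUT&Tag was measured in asynchronous and mitotic JM8 cells. The authors aligned reads to mm10 with Bowtie2, kept PCR duplicates and scaled coverage by Drosophila spike-in reads. The deposited signal is the mean scaled coverage over each SOX2 interval, averaged over 2 libraries per phase. FastQC, bedtools and deepTools are also named in the submitters' processing notes. Read totals were not used here, so depth and precision per library are unknown. No other value column was left out of the SOX2 table.

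Log2 M/A took no pseudocount and was computed where both phases exceeded 0. Medians carry order-statistic intervals and shares carry Wilson intervals at 95%. No significance test was run, because replicates could not be separated. Words were searched on both strands of GRCm38.p6 and in flanks 2 kb away. Sites were named by the 8 highest mean signals, the 8 highest and 8 lowest log2 M/A above the median mean signal, and up to 5 sites per gene list by mean signal. Members and lists were chosen with earlier results of these data known. Scripts (Python 3.11.15, numpy 2.4.6, pandas 2.3.3, scipy 1.17.1) were tested on simulated data. Alternatives covered centring, thresholds, pseudocount and word windows, and some were added after seeing the data.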

Additional observations from a re-analysis of the deposited data

How the results depend on the processing

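No paired analysis was possible because the deposited columns are averages over replicates, and leaving out each replicate could not be run for the same reason. Signal levels, shares and R2 cannot change sign, so a reversal could be seen only for log2 M/A and for the excess of words over flanks. Of 86 alternatives, 21 moved the value and none reversed it. For the other 65, a value stayed within its 95% interval, or a share within 1.5 times of the reported one. Of those shares, the one at least 2-fold higher in M was 31.96% over the top quartile, 20.06% with a pseudocount of 1 and 20.0% at 400 bp, and the one lower was 3.32% with that pseudocount and 6.15% at 250 bp, all outside the interval, as was the intron share of 43.03% by any overlap. Some were chosen after seeing the data. The median log2 M/A of 0.35 was 0.056 when centred on the weakest quartile, 0.64 over the top quartile by mean signal and 0.44 as a ratio of means. The centring gave shares at least 2-fold higher of 14.9% and at least 2-fold lower of 9.64%, and the latter was 0.894% over the top quartile. Requiring 400 bp gave A and M medians of 19.2 and 23.3 and a lower share of 2.34%, 250 bp gave 12.8 and 15.7, and leaving out sites at least 50% repeat-masked gave 13.8 and 17.01. The R2 was 0.715 on linear values, 0.672 of these without the Chl1 site, 0.733 as squared Spearman's rho and 0.723 with a pseudocount of 1. In the central 200 bp the excess over flanks was 23.9 percentage points for ACAAAG and 7.82 for the octamer. Any overlap with an exon was found at 7.07%. The cause of these shifts was not tested. Absolute phase differences rest on the spike-in factor, and depth limits could not be set.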
